A study of Mus musculus with 18 samples.

Results

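The accessible chromatin at 9 mouse genes was examined: Pdcd1, Ctla4, Lag3, Tigit, Havcr2, Btla, Cd274 and Cd160, which encode inhibitory receptors or, for Cd274, an inhibitory ligand, and Tox, which encodes a nuclear factor of the HMG-box family. The genes were taken by name, and a region counted for a gene when the authors' deposited table of regions named that gene as overlapped by the region or as having an exon within 5000 bp to its left or right. This gave 72 of the 65983 regions, and no region was counted for more than 1 of the 9 genes. The regions came from ATAC-seq, which marks open chromatin by the insertions of a transposase, on mouse CD4 T cells started from naive cells with anti-CD3/CD28 beads under Th1-polarising conditions (IL-2, IL-12 and an antibody to IL-4). The 18 samples formed 6 groups of 3. Id3 knockout (KO) and wild-type (WT) cells were each taken as Th1 at 24 h, as Tcmp at 72 h and as Teff at 72 h. The labels do not spell out Tcmp or Teff, how the knockout was made, or the strain and age of the animals. All groups share the bead stimulation and the Th1 culture.

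Inhibitory receptors appear on T cells after activation and dampen signalling from the antigen receptor. PD-1, encoded by Pdcd1, recruits phosphatases when it meets its ligand PD-L1, encoded by Cd274, and CTLA-4 competes with the costimulatory receptor CD28 for the same ligands. In T cells that meet antigen for a long time several of these receptors are expressed together, and TOX is known as a driver of that exhausted state. Id3, the gene targeted in the study, encodes an inhibitor of E proteins, which bind DNA at E-box sequences.

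The table holds 1 list of regions for all samples and no value per sample. The same 65983 regions stand under each of its 6 contrasts, so which group a region is open in cannot be read from it. Its fold changes and p-values were not used, because they follow the order of the table. In all 6 contrasts the region's best window was its first window at each of the 72 regions, 432 of 432 rows, and the p-value of the best window, where visible, fell 0 times between successive regions of the table. Each statement below is therefore about where regions lie and how large they are, with no replicate error, no n and no test. A gene without a region is not shown to be closed, since the authors' threshold for keeping a window was not stated in the labels or the file header. As a check of the cell label, all 7 T cell reference genes (Cd3e, Cd3d, Cd3g, Cd4, Lat, Ptprc and Thy1) had a promoter region. Of 12 genes of other lineages 6 had one, and 4 (Ms4a1, Csf1r, Lyz2 and Alb) had no region at all. The most in that list was 4 at Cd79a, a B cell receptor gene, all beside the gene. For comparison, 70.9% of 21896 protein-coding symbols of RefSeq had a region. Of all genes named with a region, 24% had none at a promoter.

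Promoter sequences are shown for 6 of the genes because they differ in whether the table placed a region at the promoter. For Pdcd1, Ctla4, Tigit and Havcr2 it did, and for Btla and Cd160 it did not. Each sequence runs 5′ to 3′ from 250 bases before to 50 after the start annotated by RefSeq (GRCm38.p6, not the GRCm39 build of the table). The sequences could not be placed within the regions for that reason. Capitals mark E-boxes (CANNTG, where N is any base) and AP-1 motifs (TGANTCA), searched on both strands. Cd160 has 2 annotated starts, and the outer one is shown.
Pdcd1 (chr1:94052504-94052803, - strand): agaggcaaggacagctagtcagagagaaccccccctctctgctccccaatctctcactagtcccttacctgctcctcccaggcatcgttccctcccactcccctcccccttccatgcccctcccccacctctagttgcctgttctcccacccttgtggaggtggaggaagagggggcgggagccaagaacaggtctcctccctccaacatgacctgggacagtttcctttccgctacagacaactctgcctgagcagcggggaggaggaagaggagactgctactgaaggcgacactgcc
Ctla4 (chr1:60908775-60909074, + strand): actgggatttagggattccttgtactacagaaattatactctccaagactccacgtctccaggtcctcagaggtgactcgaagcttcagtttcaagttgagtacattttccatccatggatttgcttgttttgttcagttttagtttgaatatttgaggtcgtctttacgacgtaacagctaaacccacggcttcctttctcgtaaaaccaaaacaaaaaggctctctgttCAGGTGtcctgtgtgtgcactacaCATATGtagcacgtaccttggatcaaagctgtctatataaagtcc
Tigit (chr16:43664135-43664434, - strand): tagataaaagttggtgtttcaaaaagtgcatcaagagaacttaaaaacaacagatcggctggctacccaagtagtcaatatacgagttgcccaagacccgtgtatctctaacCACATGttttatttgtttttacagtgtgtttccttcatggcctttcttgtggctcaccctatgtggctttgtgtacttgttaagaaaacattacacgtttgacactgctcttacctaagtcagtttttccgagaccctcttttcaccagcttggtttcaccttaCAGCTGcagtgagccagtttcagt
Havcr2 (chr11:46454681-46454980, + strand): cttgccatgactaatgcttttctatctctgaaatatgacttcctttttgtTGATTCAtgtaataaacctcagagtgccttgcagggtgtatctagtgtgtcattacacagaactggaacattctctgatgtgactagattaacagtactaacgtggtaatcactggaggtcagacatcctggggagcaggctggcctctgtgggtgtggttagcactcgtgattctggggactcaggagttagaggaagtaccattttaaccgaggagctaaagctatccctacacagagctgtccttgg
Btla (chr16:45224087-45224386, + strand): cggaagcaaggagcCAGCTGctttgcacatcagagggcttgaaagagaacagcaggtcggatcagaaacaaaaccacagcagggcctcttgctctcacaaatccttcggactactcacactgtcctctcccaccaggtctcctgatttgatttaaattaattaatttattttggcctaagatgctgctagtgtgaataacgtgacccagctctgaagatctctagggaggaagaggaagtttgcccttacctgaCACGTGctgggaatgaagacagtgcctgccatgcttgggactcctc
Cd160 (chr3:96829302-96829601, - strand): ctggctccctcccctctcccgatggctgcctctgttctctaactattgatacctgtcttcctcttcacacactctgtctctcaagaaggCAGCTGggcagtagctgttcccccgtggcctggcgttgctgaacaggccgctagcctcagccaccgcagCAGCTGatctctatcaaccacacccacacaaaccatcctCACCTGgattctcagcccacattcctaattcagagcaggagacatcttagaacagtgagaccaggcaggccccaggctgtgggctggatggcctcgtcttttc

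Most of the 9 loci carried more regions than most genes, with Tox far ahead. Tox had 26 regions and Ctla4 12. Pdcd1, Tigit and Havcr2 had 6 each, Lag3, Btla and Cd274 had 5 each, and Cd160, an HVEM receptor with a lipid anchor, had 1. The median over the 9 genes was 6, against 2 over all 26755 genes the table names (quartiles 1 and 3). At least 5 regions were listed at 8 of the 9 genes and at 14.2% of all genes. With overlapping regions alone these were 4 of 9 and 10.7%, and with regions of at least 500 bp 5 of 9 and 9.92%. Such numbers were not particular to these genes. At least 5 regions were also listed at 6 of 7 signalling genes below the receptors (median 7) and at 4 of 7 T cell reference genes (median 5). The 3 activating partners all had at least 5 (median 10), as did 9 of 16 factors tied to exhaustion (median 5.5). Fewer reached 5 among other inhibitory receptors (4 of 12, median 3) and ligands (3 of 11, median 3). The 26 regions of Tox were matched or exceeded at 0.295% of genes, and 67 genes had more. Ctla4 stood among the 2.3% of genes with at least 12. Its number included regions up to 26.05 kb before its promoter and exon region, through the authors' annotation of where the gene begins. With the single region of Cd160 in an intron, this gene had as few as any gene the table names, as did 37.4% of all genes. Set among 21896 protein-coding symbols of RefSeq, with the 29.1% that the table does not name at 0, Cd160 had more regions than 29.1% and Tox more than 99.7%.

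**Figure D1:**
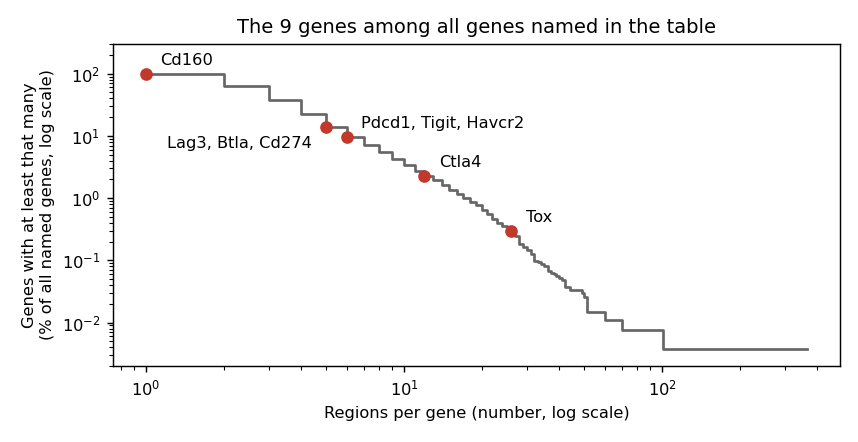
Share of the 26755 genes named in the table (vertical axis, percent, log scale) that have at least a given number of accessible regions (horizontal axis, log scale). Red points mark the 9 genes, from Cd160 with 1 region to Tox with 26, which 0.295% of genes reach.

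The regions of the 9 genes lay in introns more often than those of genes in general, and Tox made up the larger part of that difference. A region's class was read from the table, where P stands for promoter, E for exon and I for intron, and a region can carry several. Across the 72 regions 44 (61.1%) carried the intron class, 14 (19.4%) the exon class and 12 (16.7%) the promoter class, and 12 (16.7%) lay beside the gene only. Over all 76685 pairs of a region and a gene the shares were 38.5% intron, 30.6% exon, 37% promoter and 21.7% beside the gene. Without Tox, 21 of 46 regions (45.7%) carried the intron class and 10 (21.7%) the promoter class. These shares were not matched for the number of regions per gene, and 37.4% of all genes had a single region. Of the 43 regions that were intronic only, 23 belonged to Tox.

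**Figure D2:**
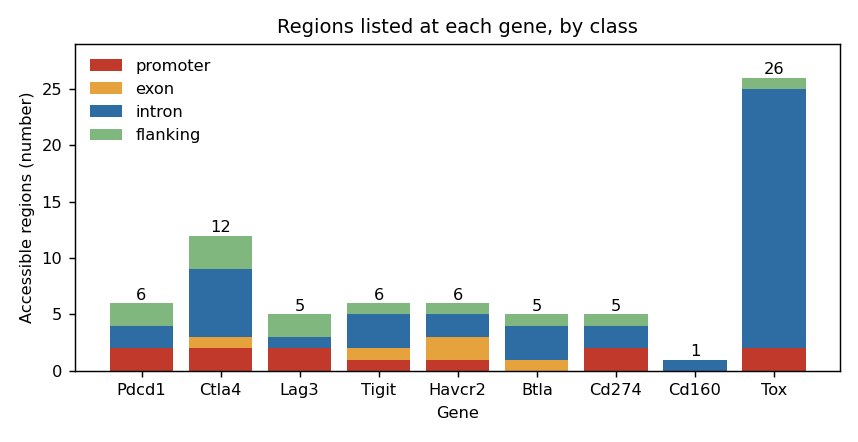
Number of accessible regions at each gene, stacked by class, with a region that carries several classes counted as promoter first, then exon, then intron. Flanking regions lie within 5000 bp of an exon without overlapping the gene. Btla and Cd160 have no promoter segment, and 23 of the 26 regions of Tox are intronic.

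In size the regions resembled the rest of the table. Their width had a median of 550 bp (300 to 750) and all regions had a median of 550 bp (300 to 1100). A region is built of overlapping windows, and the 72 regions held 432 of the 409588 windows, a median of 6 per region as in the whole table. The intronic regions of the 9 genes had a median width of 550 bp, and the 12 promoter regions one of 550 bp (450 to 700), against 600 bp for all 22920 promoter regions. In 97.8% of all regions the windows tiled the width without a gap, and 2 of the 72 were exceptions. The first region of Btla held 5 windows where its 700 bp have room for 9, and the 5′ promoter region of Tox held 4 where its 500 bp have room for 5.

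Pdcd1, on the minus strand of chromosome 1, had accessible regions on both sides of its start. A 500 bp region (93980001 to 93980500, GRCm39, as for all coordinates of regions) covered the promoter and an exon. A second promoter region (93981251 to 93981750) lay 973 bp before the nearest exon, and a further region (93983601 to 93984200), outside the promoter class, 3323 bp before it. In this table the promoter class ended at 3000 bp before an exon: the farthest promoter region without an exon lay at 3000 bp and the nearest flanking one on that side at 3001 bp. Inside the gene there were 2 intronic regions (93969901 to 93970450 and 93975651 to 93976200), and a 700 bp region lay 2527 bp past the 3′ end. All 6 regions named Pdcd1 alone. Farther out, 3 regions that name no gene lay before the start, at 26.8, 39.5 and 94.8 kb from the centre of the promoter and exon region. In the 100 kb past it there was 1 region without the name of Pdcd1, at 80.05 kb. Within 100 kb stood 10 regions, more than around 33.5% of genes (median 13), and within 50 kb stood 8, more than around 57% of genes (median 7), so the side of the median depended on the window.

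At Ctla4, on the plus strand of chromosome 1, regions extended far to the 5′ side. The region on its promoter and an exon (60947901 to 60948500) was 600 bp wide, and a region of both promoter and intron class (60946551 to 60947000) lay 1.43 kb before it. A further 5 intronic regions lay between 3.25 and 20.0 kb before it. The table treats them as part of the gene, which its annotation begins with an exon 3759 bp past the outermost of the 12 regions (60921901 to 60922400). The region at 60938351 to 60938900 was also listed as a promoter of Rpl18-ps1, a pseudogene by its name, so that it cannot be credited to Ctla4 alone. Within the gene to the 3′ side there was an intronic region (60950751 to 60951150) and one on an exon (60952351 to 60953000). The last pair lay 510 and 4460 bp past the last exon.

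The surroundings of Ctla4 were among the densest in the table. Within 100 kb of its promoter and exon region 36 regions were listed, more than around 99.6% of genes, and 17 of them named no gene. Ctla4 lies between Cd28 and Icos, both costimulatory receptors of the same family. From the first region of Cd28 to the last region of Icos the table had 50 regions in 259 kb. Of these, 27 named 1 of the 3 genes (10 for Cd28, 12 for Ctla4 and 5 for Icos), 17 named no gene and 6 named others. The interval between Cd28 and Ctla4 held 11 of the 17, and the one between Ctla4 and Icos held 6.

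**Figure D3:**
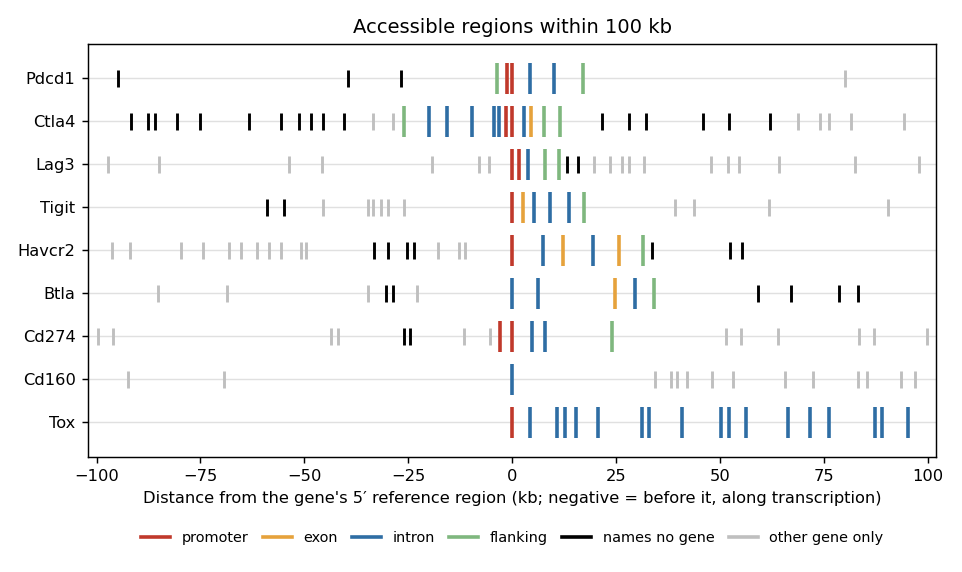
Accessible regions within 100 kb of each gene's 5′ reference region, with distance in kb along the direction of transcription. The reference is the centre of the 5′-most region over promoter and exon, or, at Btla and Cd160, of the 5′-most region that overlaps the gene; tall coloured ticks are regions of the gene by class, black ticks name no gene, and grey ticks name other genes only. Ctla4 has 36 regions in view and Pdcd1 10, and all 18 around Tox lie inside Tox.

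Lag3, on the minus strand of chromosome 6, encodes a receptor that binds MHC class II and is related in structure to CD4. Both of its promoter regions, 124886951 to 124887400 and 124888401 to 124889050, also covered an exon. A 650 bp intronic region (124884601 to 124885250) lay 90 bp from an exon. On the 3′ side a 750 bp region stood 174 bp past the last exon (124880401 to 124881150), the widest of the 46 regions outside Tox, and another stood 3524 bp past it. The promoter regions lay near other genes, with Ptms 1594 and 3244 bp away. Cd4 itself is the next gene the table names on the 3′ side, and 2 regions that name no gene stood between the regions of Lag3 and Cd4, 13.3 and 15.8 kb from the 5′ promoter region of Lag3. Within 100 kb of that promoter there were 25 regions, more than around 92.8% of genes, and 18 of them named other genes only.

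Tigit and Havcr2 resembled each other in number, with 1 promoter region each, both over an exon. TIGIT competes with the activating receptor CD226 for the ligand PVR, and TIM-3, the product of Havcr2, binds several ligands, among them galectin-9. On the minus strand of chromosome 16, the 700 bp promoter region of Tigit (43484401 to 43485100) was followed by a region on an exon (43481901 to 43482400), 3 intronic regions and 1 region 1430 bp past the 3′ end. The intronic ones were 550 to 700 bp wide, and the first of them along the gene (43479251 to 43479800) lay 2 bp from an exon. At Havcr2, on the plus strand of chromosome 11, 4 of the 6 regions were 650 bp wide, including that on the promoter and an exon (46345351 to 46346000). Of the remaining ones, 1 on an exon was 450 bp wide and 1 was 550 bp wide, 4819 bp past the last exon. The pair of intronic regions (46352651 to 46353300 and 46364901 to 46365550) lay 7.3 and 19.55 kb from the promoter region. Within 100 kb of the promoter region the table listed 18 regions for Tigit and 27 for Havcr2, and within 50 kb it listed 14 and 15. Those before Havcr2 included regions of Med7. Regions that name no gene numbered 2 around Tigit, 55.0 and 59.1 kb before its promoter region. There were 7 around Havcr2, 4 of them 23.5 to 33.3 kb before its promoter region, between Fam71b and Med7.

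Btla had 5 regions, none of them at its promoter. BTLA binds HVEM, the product of Tnfrsf14, as does CD160. The regions of Btla, on the plus strand of chromosome 16, were 3 in introns, 1 on an exon (45072051 to 45072750) and 1 that lay 3568 bp past the last exon. The first of them (45047401 to 45048100) lay 2577 bp past an exon. The intronic one at 45053801 to 45054250 was the only intronic region outside Tox with no exon within 5000 bp, and the next region of the gene followed after 17800 bp. Within 100 kb of the first region 6 regions named no gene, the nearest at 28.7 kb before it. Of all genes the table names 24% had no promoter region, and of the 3789 genes with at least 5 regions 6.44% (244 genes) had none. Cd160, on the minus strand of chromosome 3, had a 450 bp region of 4 windows (96719951 to 96720400) in an intron, 1386 bp from the exon before it and 3700 bp from the exon after it. Such a lone intronic region was listed for 682 genes. Its neighbours within 100 kb, 14 regions, all named other genes. Tbx21, which encodes T-bet, the master factor of Th1 cells, had 6 regions and, like Btla and Cd160, none at its promoter.

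Cd274 shared its 5′ end with a neighbour. On the plus strand of chromosome 19, its region on promoter and exon (29344351 to 29345050) and its second promoter region (29341451 to 29341900) also overlapped the promoter and an exon of Plgrkt, on the opposite strand. Of its 2 regions in introns, that at 29352251 to 29352800 also overlapped an intron of ENSMUSG00000117964, and 1 of the 5 regions of Cd274 named no other gene. That region lay 3106 bp past an exon. Before the promoter region stood 2 regions that name no gene, at 24.7 and 26.1 kb. Pdcd1lg2, which encodes the other PD-1 ligand, lies on the 3′ side of Cd274 and had 7 regions, the first of them 51.5 kb past the Cd274 promoter region.

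Tox carried its regions in the 5′ part of a long gene. The gene lies on the minus strand of chromosome 4, and its overlapping regions spread over 303 kb (6688501 to 6991500). A promoter and exon region stood at each end, the 5′ one at 6991001 to 6991500. The other (6688501 to 6689100) also overlapped the promoter and an intron of ENSMUSG00000086052, on the opposite strand. Of the 25 overlapping regions 9 lay in the first 50 kb from the 5′ region and 9 in the next 50 kb. The following stretches of 50 kb held 2, 3, 1 and 0, and the region at the far end was the only overlapping one after a gap of 59.2 kb. Thus 18 of 25 (72%) lay in the first 33.3% of the extent and 20 (80%) in the first 50%. In the 332 other genes with at least 10 overlapping regions over 0.5 to 2 times that extent, the median share in the first 50% of the extent was 50% (quartiles 40 and 63.2), and 93.7% of them had a lower share than Tox. On the outer side no region was listed for 121 kb before the 5′ promoter region. Past the 3′ end lay the flanking region of Tox (6681851 to 6682450), 3903 bp from an exon.

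**Figure D4:**
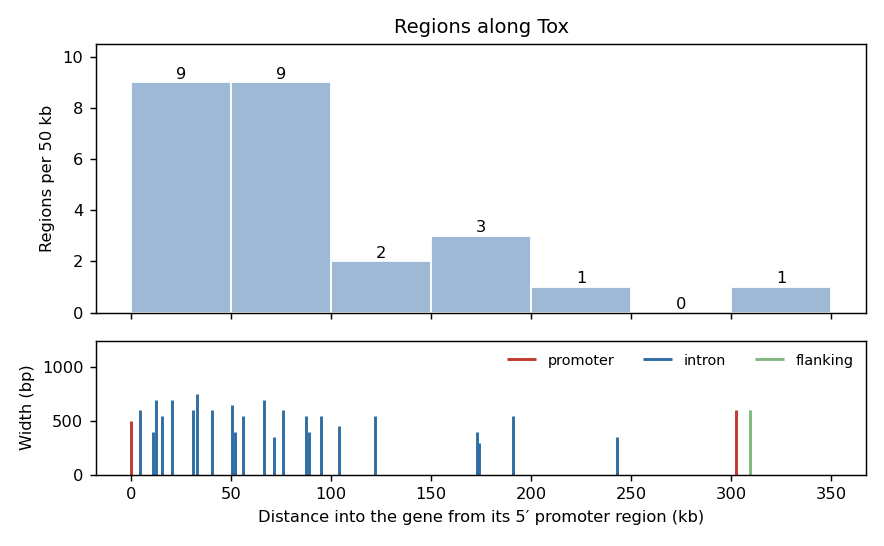
Regions of Tox by distance in kb into the gene from the centre of its 5′ promoter region. Bars in the upper panel count overlapping regions per 50 kb, 9 in each of the first 2 bins and 7 in all the others together, and lines in the lower panel give the width in bp of every region by class, the flanking one included.

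Regions of Tox ranged from a single window of 300 bp (6817151 to 6817450) to 10 windows over 750 bp (6958051 to 6958800), both in introns, with a median of 550 bp. The 6 intronic regions beyond 100 kb were 300 to 550 bp wide, while 9 of the 17 in the first 100 kb were 600 bp or wider. The intronic regions of Tox were also far from exons. Of its 23 regions in introns 20 (87%) had no exon within 5000 bp, against 43.7% of all 26224 intronic pairs of region and gene and 1 of the 20 in the other 8 genes. Neither comparison was matched for the length of genes or introns. The overlapping regions of Tox spread over 303 kb, and those of the other 8 genes over 0.45 (Cd160) to 30.15 kb (Btla). Tox had many regions for its extent, meaning the span of its overlapping regions. This extent is set by the regions themselves and is not the annotated length of the gene. The 597 other genes with 0.5 to 2 times the extent of Tox had a median of 10 overlapping regions (quartiles 6 and 17). Of them 89.1% had fewer than the 25 of Tox. By overlapping regions 49.3% of genes of like extent had fewer than Btla, against 84.4% of all genes, and 74.3% had fewer than Havcr2, against 89.3%. For Ctla4 the shares were 97.8% and 96.3%, for Lag3 81.5% and 75.2%, and for Tigit 89.8% and 89.3%. They were 78.8% and 84.4% for Pdcd1, 80% and 84.4% for Cd274, and 0% and 14.5% for Cd160. The 0% for Cd160 was fixed in advance, since it has 1 overlapping region and no gene with an extent can have fewer.

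By the numbers of promoter, exon, intron and flanking regions, Zmiz1 was the gene most like Tox, with the same 4 numbers, followed by Pigk and St6gal1, which differed by 1 and 2 in sum. For Ctla4 no gene had the same numbers, and Uggt1, Mcoln2 and Sipa1l3 differed by 1. The other genes with at least 5 regions shared their numbers with 8 (Havcr2) to 86 (Cd274) genes. This likeness is over 4 counts per gene and says nothing on function.

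Related genes differed widely. As background to the counts below, 70.9% of 21896 protein-coding symbols of RefSeq had a region, with a median of 2. Of all genes named with a region, 24% had none at a promoter. Of 12 other inhibitory receptors of T cells 11 had a region and 8 a promoter region, with a median of 3 regions, from 0 at Pvrig to 8 at Cd101. Klrg1, a receptor of late effector cells, had 1 region, beside the gene. Of 11 ligands 10 had a region, and Cd86, with 8, had the most and Fgl1, a ligand of LAG-3, had 0. The 3 activating partners that share a ligand or family with the receptors had 5 (Icos), 10 (Cd28) and 13 (Cd226). In the Tox family, Tox2 had 7 regions, 6 of them in introns, and Tox3 and Tox4 had 1 each, over a promoter and an exon. Among 16 factors tied to exhaustion all had a region, with a median of 5.5. Their numbers ran from 2 at Nr4a2, Eomes and Myb to 59 at Bach2, a repressor of effector differentiation, and Nfatc2, a calcium-regulated factor, had 23. All 7 signalling genes below the receptors had a promoter region. Ptpn6, which encodes the phosphatase SHP-1, had 7 regions, 6 of them at promoters, while Ptpn11, which encodes SHP-2, had 2, the fewest, and Lck 10, the most.

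The promoters of the receptor genes were poor in CG dinucleotides for genes with a promoter region. A promoter of 300 bases was found in the RefSeq table for 7 of the 9 genes, not for Lag3 or Tox, and 8 promoters resulted, as Cd160 has 2. In the 5 of them whose gene had a promoter region the CG dinucleotides numbered 3 (Havcr2), 5 (Pdcd1), 5 (Tigit), 8 (Ctla4) and 15 (Cd274). All 14731 promoters of genes with a promoter region had a median of 19 (quartiles 9 and 28), so 5 of 5 lay below the median and 4 of 5 below the lower quartile. Against all 32851 promoters, with a median of 7, Ctla4 and Cd274 lay above the median and the other 3 below it. Promoters of genes with regions elsewhere only had a median of 6, near the 5 of Btla and the 6 of both Cd160 starts, and those of genes the table does not name had a median of 3. The GC share ran from 41.3% at Tigit to 60.7% at Pdcd1, against a median of 60% in genes with a promoter region. The GC share of Pdcd1 was thus close to that median, and its number of CG dinucleotides was not.

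**Figure D5:**
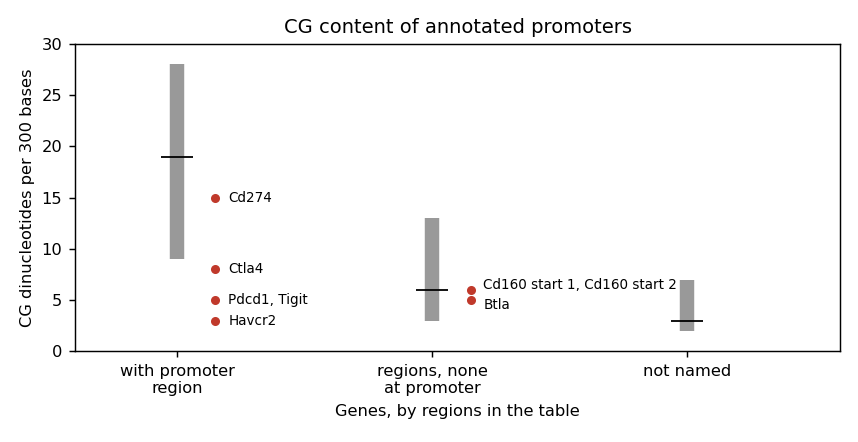
CG dinucleotides in 300 bases of annotated promoter, for genes with a promoter region in the table, with regions elsewhere only, and not named. Grey bars span the quartiles and black lines mark the medians (19, 6 and 3); red points are the promoters of the genes studied, where Cd160 has 2 starts.

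E-boxes were found in 6 of the 8 promoters, against 72.3% of all 32851 promoters of this length. The sequences printed above show none for Pdcd1 and Havcr2. Ctla4 had CAGGTG at -19 and CATATG at 5, counted by the motif's first base from the annotated start, and Tigit had CACATG at -138 and CAGCTG at 26. At Btla, CAGCTG stood at -236 and CACGTG at 4, and the outer Cd160 start had CAGCTG at -161 and -92 and CACCTG at -53. Cd274 had CACCTG at -235 and CACTTG at 33. Of the types that E proteins bind, which are counted among the E-boxes as well, CAGCTG was found in 3 of 8 promoters (16.3% of all) and CAGGTG, which reads CACCTG on the other strand, in 3 of 8 (20.2%). The AP-1 motif TGANTCA stood in 1, that of Havcr2 at -200 (7.81% of all). The RUNX motif TGTGGT stood in 5 (16.8%), those of Tigit, Havcr2, Btla and both starts of Cd160. Among these genes, Btla and Cd160 had no promoter region. The NFAT core GGAAA stood in 5 (61.3%) and the core CAAAG of TCF1 and LEF1 in 5 (53.9%). The T-box motif GGTGTGA was found in 1, the inner Cd160 start (3.98%). With 8 promoters the shares are coarse, short motifs occur by chance, and a match in the letters is not a bound site.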

How the data were processed

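Libraries of the 18 samples were made by ATAC-seq. Per the submitters' processing notes the genome build was GRCm39 and the tools were BWA, edgeR, Picard and Trim Galore, with no version or role given. The file used is the authors' deposited table of comparisons, 395898 rows, with 65983 regions under each of 6 contrasts. Per the file headers it gives each region's position, width in bp, number of windows, p-value, and the overlapped and nearby genes with class and distance. The deposited p-values served only to check the table's order. Depth per sample is unknown from this table and no interval needing read counts is given. All of the table's columns were of comparisons or regions, none of single samples.

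Regions were taken once, after a check that positions and annotation are the same in all contrasts. Annotation cells were split by gene, and numbers per gene, places among all genes, and distances were computed in Python 3.11.15 with pandas 2.3.3 and numpy 2.4.6, and plotted with matplotlib 3.10.9. The counting and the motif search were tested on simulated tables. The RefSeq gene table and promoters are of GRCm38.p6, so that they were used for names and sequences only, and none of their positions was set against a region. The 9 genes, the lists and the motifs were chosen with earlier results of these data known. Every member gene is named, and of each list the genes with the most and the fewest regions. Those named beyond this (Klrg1, Tbx21, Nfatc2, Ptpn6, Pdcd1lg2 and neighbours of the loci) were chosen after their values were seen. The design made no provision for tests, and windows of 100 kb were to be drawn around annotated starts. Without an annotation of the build they were drawn around the 5′-most region over promoter and exon.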

Additional observations from a re-analysis of the deposited data

How the results depend on the processing

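No paired analysis was possible because sample values are not in the table used, and for the same reason no replicate could be left out. Regions per kb of annotated gene, genes of like annotated length, windows around annotated starts, and motifs in regions or by class of region were not run, since no genome or annotation of the build was used here. The 72 regions became 60 with overlap only, 71 with at least 2 windows and 53 at a width of at least 500 bp. Overlap alone took Lag3 from 5 to 3, and the minimum width took Btla and Cd274 from 5 to 3 and Cd160 from 1 to 0; the other genes' numbers stayed within 1.5 times in these 3 settings.

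The median share of genes with fewer regions than a member was 90.3%. It was 87.9% among genes with a promoter region, 91.6% by summed width, 91.4% by summed windows and 84.4% with overlap only. In settings added after seeing the data, among them leaving out Tox and the reference regions for the 50 and 100 kb windows, it was 89.4% among protein-coding genes with unnamed ones at 0, and 80% among genes of like extent, where the cause was not tested. The share of intronic regions (61.1%) became 59.7% with 1 class per region, 73.3% with overlap only, where the 12 flanking regions leave the total, and 45.7% without Tox. Within 50 kb in place of 100 kb the median share of genes with fewer regions around them was 78.8% in place of 72.5%. The mean width was 553 bp.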
